A study of Mus musculus with 79 samples.

Results

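The natriuretic peptide receptors are encoded by 3 genes in the mouse, *Npr1*, *Npr2* and *Npr3*, and each matched 1 row by its symbol among the 39063 features with a numeric gene ID. They were followed across caudal vertebrae (CV), lumbar vertebrae (LV) and inguinal white adipose tissue (iWAT) in every treatment group. *Npr3* was selected by the study from these libraries, through its fall with leptin in WT CV of both sexes, its return with insulin, and its levels in CV, LV and iWAT of WT females with PBS. The receptors' values in those contrasts are therefore a description with no test. The WT groups with PBS also serve as the reference in tested comparisons of leptin in iWAT and LV, genotype, sex and insulin, which are to that extent not independent of the selection. In the annotation for the authors' build, GRCm38.p6, *Npr1* (gene ID 18160) lies on chromosome 3 from 90450591 to 90465928 on the minus strand, *Npr2* (gene ID 230103) on chromosome 4 from 43629015 to 43651437 on the plus strand, and *Npr3* (gene ID 18162) on chromosome 15 from 11839896 to 11907837 on the minus strand.

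Natriuretic peptides are small circulating or locally released hormones. *Npr1* encodes the receptor for the atrial and B-type peptides and *Npr2* the receptor for the C-type peptide, and both carry an intracellular guanylyl cyclase domain that makes cGMP. *Npr3* encodes a receptor that binds all of these peptides but has no cyclase domain, so that it clears them by internalization and can signal through inhibitory G proteins. In adipocytes, cGMP activates a kinase that phosphorylates hormone-sensitive lipase and perilipin, and the proportion of the cyclase receptor to the clearance receptor is commonly used to describe how sensitive fat is to the peptides. In growing bone, the C-type peptide and *Npr2* act on cartilage.

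RNA sequencing covered 79 libraries from 51 mice, aged 4 to 5 months by the series' description, while the study's legends give a range that reaches higher. BMAd-Pnpla2+/+ mice (WT) had an intact *Pnpla2*, the gene of the lipase ATGL, and BMAd-Pnpla2-/- mice (cKO) lacked it in bone marrow adipocytes, on a mixed SJL and C57BL6 background. All mice had an intracerebroventricular (ICV) pump for 9 days with PBS or with leptin at 100 ng per h, and all were pair-fed. Female WT mice gave CV, LV and iWAT (PBS n = 5, leptin n = 5), and female cKO mice gave CV and LV (PBS n = 4, leptin n = 4). Male WT mice gave CV with PBS (n = 5), leptin (n = 8), PBS with a subcutaneous insulin pellet (n = 5) and leptin with the pellet (n = 6), and male cKO mice gave CV with PBS (n = 5) and leptin (n = 4). Tissues with the same replicate number within a female group came from the same mouse.

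Total counts ran from 16100377 to 19364106 in CV, from 28717516 to 29757254 in LV and from 17638318 to 19100698 in iWAT. *Pnpla2* was at 217 to 288 TPM (a transcript abundance scaled for gene length and library depth) in female WT CV with PBS and at 131 to 256 TPM in female cKO CV with PBS, and at 191 to 294 and 135 to 209 TPM in the male groups. The ranges overlapped, and whole vertebrae also hold cells in which the gene was not deleted. The summed level of 8 adipocyte markers had a median of 11340 TPM in female WT CV with PBS, 490 TPM in LV and 55930 TPM in iWAT. Vertebrae also held muscle, with medians of 35750 TPM in CV and 1267 TPM in LV for 6 skeletal muscle markers. In bulk tissue of this kind, fewer cells of a type and less RNA per cell cannot be told apart.

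The 3 receptors had different orders in the 3 tissues. In CV, *Npr2* was the highest in every one of the 10 groups. The 51 CV libraries lay between 32.1 and 71.4 TPM for *Npr2* (median 46.5), between 13.4 and 37.1 TPM for *Npr1* (median 19.6) and between 8.49 and 31.9 TPM for *Npr3* (median 17.8). In the 18 LV libraries the cyclase receptors were lower, with *Npr2* at 3.74 to 6.19 TPM and *Npr1* at 2.00 to 4.16 TPM, and *Npr3* was close to absent at 0.10 to 0.60 TPM. In iWAT with PBS the clearance receptor led. *Npr3* was at 54.7, 63.7, 62.5, 65.4 and 87.8 TPM in the 5 mice, *Npr1* at 30.7 to 47.8 TPM and *Npr2* at 27.7 to 30.9 TPM.

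As a share of the summed TPM of the 3 receptors, *Npr3* made up 49.2% ± 5.92 (SD, n = 5) in iWAT with PBS, 22.8% ± 2.45 (SD, n = 5) in CV and 2.72% ± 0.832 (SD, n = 5) in LV of the same WT females. *Npr2* made up 50.8% ± 4.11 in CV, 59.5% ± 2.22 in LV and 21.8% ± 1.25 in iWAT. In these mice, and with no test because *Npr3* was selected on them, the log2 difference of *Npr3* was 7.53 between iWAT and LV, 5.79 between CV and LV and 1.73 between iWAT and CV.

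**Figure D1:**
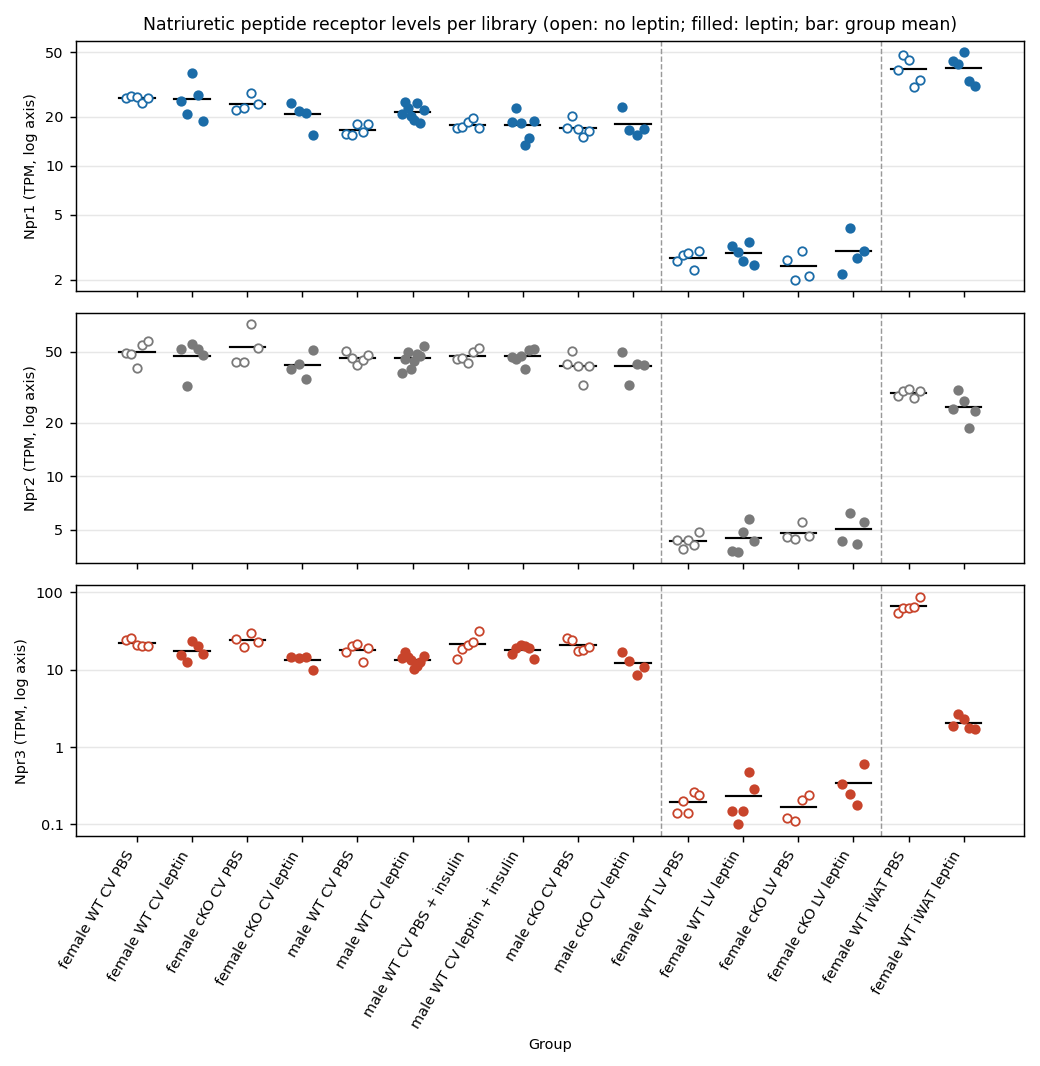
TPM of *Npr1*, *Npr2* and *Npr3* (log axes) in each of the 79 libraries by group, with open points for groups without leptin, filled points for groups with leptin, and a bar at the group mean. *Npr3* in iWAT was at 54.7 to 87.8 TPM with PBS and 1.69 to 2.66 TPM with leptin, while *Npr1* and *Npr2* overlapped between these groups.

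Leptin had its largest effect on the receptors in iWAT, a contrast that did not itself select *Npr3*, although its PBS group was among those whose levels did. *Npr3* was at 1.89, 2.66, 2.29, 1.75 and 1.69 TPM in the 5 leptin mice. All 5 lay far below the lowest PBS mouse at 54.7 TPM, and the group means were 2.06 and 66.8 TPM. edgeR's quasi-likelihood test gave *Npr3* a log2 fold change of -5.10 with a standard error of 0.207 and an adjusted p of 1.06e-06, a 34.2-fold lower level. As a difference of mean log2 TPM it was -4.68 among mice numbered in the 100s and -5.25 among those in the 600s. Of the 14873 genes tested, 15.1% were called in this comparison, at an adjusted p below 0.05 and a log2 fold change of at least 0.5 in size, and 6 genes had a lower log2 fold change than *Npr3*.

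Neither cyclase receptor passed the test in iWAT. *Npr1* was at 44.0, 42.2, 50, 33.0 and 31.1 TPM with leptin and at 39.1, 47.8, 44.5, 30.7 and 33.8 TPM with PBS, and the groups overlapped (log2 fold change 0.12, standard error 0.154, adjusted p = 0.598 by edgeR). *Npr2* was at 23.98, 30.6, 26.4, 18.7 and 23.3 TPM with leptin and at 28.1, 30.3, 30.9, 27.7 and 30.1 TPM with PBS (log2 fold change -0.23, standard error 0.104, adjusted p = 0.128 by edgeR). The 95% intervals of these differences ran from -0.18 to 0.42 and from -0.43 to -0.02 on the log2 scale. The share of *Npr3* among the 3 receptors went from 49.2% to 3.08% ± 0.32 (SD, n = 5), and that of *Npr1* from 29.0% to 59.9%.

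Adipocyte and erythroid markers were also lower with leptin in iWAT. The summed level of the adipocyte list lay between 52480 and 71120 TPM with PBS and between 18280 and 46260 TPM with leptin, and 4 of 8 markers fell (*Fabp4*, *Lep*, *Plin1* and *Plin4*), with a median log2 fold change of -0.70 over the list. None of the 8 markers was at 0. The 5 erythroid markers summed to 1399 to 1970 TPM with PBS and to 142.8 to 821.3 TPM with leptin, and 4 of them fell. None of 8 endothelial markers was called. The part of cell composition in the change of *Npr3* was not tested.

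**Figure D2:**
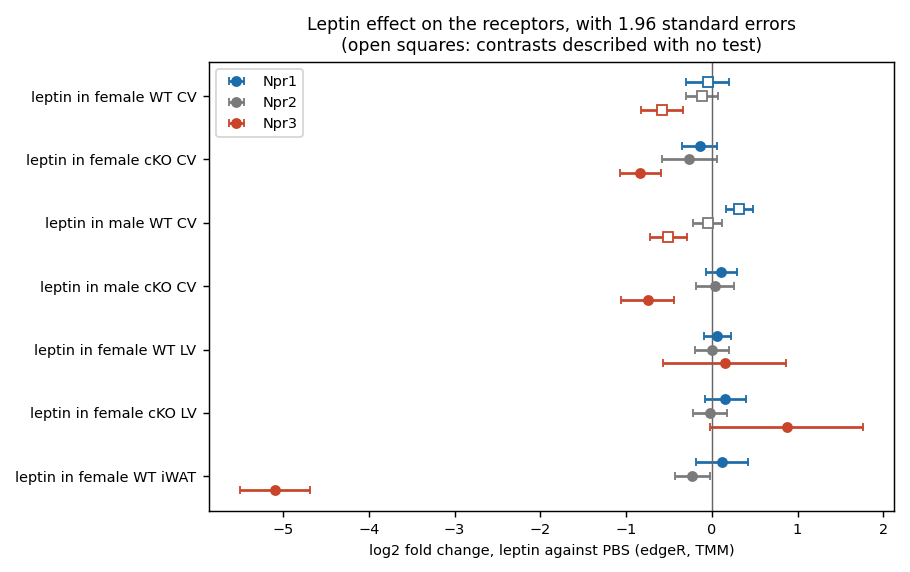
Log2 fold changes of the 3 receptors with leptin against PBS in 7 sets of mice (edgeR after TMM scaling), with bars for the 95% interval, filled circles for tested contrasts and open squares for the WT CV contrasts that are described only. *Npr3* stands at -5.10 in iWAT, between -0.83 and -0.51 in CV, and at 0.15 and 0.87 with wide bars in LV.

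In CV the difference in *Npr3* between leptin and PBS was smaller than in iWAT, and the cKO mice give a view of it that did not select the gene. In female cKO CV, *Npr3* was at 14.7, 14.2, 14.8 and 9.79 TPM with leptin and at 24.8, 19.5, 29.9 and 23.2 TPM with PBS. The groups did not overlap. How many of all genes are separated in this way was not counted in any comparison. edgeR put the log2 fold change at -0.83 with a standard error of 0.122 and an unadjusted p of 6.13e-05, and its adjusted p of 0.0757 missed the threshold. In this comparison 0.0269% of genes were called by edgeR, and 1723 of 14873 had an unadjusted p below 0.05. DESeq2 gave an adjusted p of 2.33e-06 for the same gene and called 219 genes in place of 4.

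In male cKO CV, *Npr3* was at 16.9, 12.97, 8.49 and 10.7 TPM with leptin and at 25.9, 24.5, 17.4, 17.8 and 19.8 TPM with PBS, again with no overlap. edgeR gave a log2 fold change of -0.75 (adjusted p = 0.0904, standard error 0.157, 0.188% of genes called), and DESeq2 gave an adjusted p of 0.00115. At an unadjusted p below 0.05 by edgeR there were 1436 of 14873 genes. Higher genes made up 46.4% of the calls after TMM scaling and 26.1% on TPM. The difference between the sexes was 0.08 on the log2 scale (95% interval -0.34 to 0.50, adjusted p = 1 by edgeR, with 0% of genes called, 529 at an unadjusted p below 0.05, 1 called by DESeq2 and 0 by limma). The effect kept its sign within the mouse numbers of the 100s and 5400s in each sex, at -0.59 and -1.60 in females and -0.58 and -0.49 in males as differences of mean log2 TPM. These sets hold 1 to 3 mice a group, and leave out the male leptin mice at 8.49 and 10.7 TPM, the lowest of that group, whose numbers are in the 600s where there is no male cKO mouse with PBS. With the mouse-number series as a covariate the male value was -0.50 (adjusted p = 0.198 by edgeR).

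*Npr1* and *Npr2* passed the test in neither sex of cKO mice. *Npr1* was at 15.4 to 24.4 TPM with leptin and 22.0 to 27.9 TPM with PBS in females (log2 fold change -0.14, adjusted p = 0.597 by edgeR) and at 15.5 to 23.2 and 15.1 to 20.2 TPM in males (0.11, adjusted p = 0.766 by edgeR). *Npr2* had log2 fold changes of -0.26 in females and 0.04 in males (adjusted p = 0.541 and 0.957 by edgeR). Among the adipocyte markers, *Lep* alone was called lower in cKO CV of each sex. The median summed level of the list went from 9416 to 6648 TPM in females and from 11370 to 9087 TPM in males. Its groups did not overlap in females (8656 to 11510 TPM with PBS, 6195 to 7557 TPM with leptin) and overlapped in males. The median sum of 9 chondrocyte markers went from 1705 to 1021 TPM in females, and that of 5 erythroid markers from 2148 to 6822 TPM in males. Both of these overlapped between the groups. The part of these lists in the change of *Npr3* was not tested.

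The WT contrasts that selected *Npr3* are given for comparison. In female WT CV, *Npr3* was at 24.2, 25.6, 21.2, 20.6 and 20.5 TPM with PBS and at 15.4, 12.5, 23.5, 20.2 and 16.1 TPM with leptin, and the groups overlapped. The fitted log2 fold change was -0.58 (standard error 0.126). It was uneven over the mouse numbers: the difference of mean log2 TPM was -0.76 in the 100s (2 leptin and 3 PBS mice) and -0.06 in the 600s (3 leptin and 2 PBS mice). In male WT CV, *Npr3* ran from 12.8 to 21.5 TPM with PBS (median 19.0) and from 10.3 to 17.0 TPM with leptin (median 13.8), with a log2 fold change of -0.51 (standard error 0.112). *Npr1* in these males was at 15.6 to 18.2 TPM with PBS and at 18.4 to 24.8 TPM with leptin, so that every leptin mouse was above every PBS mouse (log2 fold change 0.32, standard error 0.0822). In WT females it was -0.05 with overlapping groups. The difference between the sexes was not tested in WT. In cKO CV it was 0.25 for *Npr1* and not called (unadjusted p = 0.0864 by edgeR's test of the interaction). *Npr2* in WT was at -0.11 in females and -0.05 in males. In the male comparison 2823 of 14873 genes had an unadjusted p below 0.05 by edgeR. Of the 8 adipocyte markers, 5 fell in WT CV of each sex, where 5.04% of all genes were called in females and 1.75% in males. *Adipoq*, *Plin1*, *Plin4*, *Lep* and *Car3* of this list are among the genes the study picked from these contrasts. The count is therefore not independent of that choice. Other lists differed too. In females 4 macrophage markers summed to 323.1 to 435.6 TPM with PBS and 543.4 to 697.2 TPM with leptin, and the median sum of 8 osteoblast and osteocyte markers went from 5214 to 13910 TPM. In males 5 erythroid markers summed to 1220 to 3373 TPM with PBS and 3861 to 10470 TPM with leptin. The median sum of 6 skeletal muscle markers went from 35750 to 13580 TPM in females and from 42090 to 28280 TPM in males. That of 9 chondrocyte markers went from 1560 to 1190 TPM in females and from 1305 to 1154 TPM in males. The groups overlapped for both of these lists. The part of these lists in the values of the receptors was not tested.

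In LV no receptor passed the test with leptin, and no gene was called by edgeR in WT or cKO mice (0% in each). At an unadjusted p below 0.05 there were 2183 and 1331 genes, DESeq2 called 142 and 72, and limma on log2(TPM + 0.1) called 3 and 0. In WT LV, *Npr3* was at 0.15, 0.10, 0.15, 0.47 and 0.29 TPM with leptin and at 0.14, 0.20, 0.14, 0.26 and 0.24 TPM with PBS (log2 fold change 0.15, 95% interval -0.57 to 0.87, adjusted p = 0.898 by edgeR). In cKO LV it was at 0.33, 0.25, 0.18 and 0.60 TPM with leptin and at 0.12, 0.11, 0.21 and 0.24 TPM with PBS (log2 fold change 0.87, 95% interval -0.02 to 1.77, adjusted p = 0.633 by edgeR). Without 1 library the value in cKO LV lay between 0.45 and 1.15, and between 0.19 and 1.16 under other settings. These values rest on few reads, 20 to 122 of *Npr3* per LV library.

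The leptin effect was then compared between tissues of the same WT females. For *Npr3* it was lower in iWAT than in LV (log2 difference -5.27, standard error 0.420, adjusted p = 2.17e-07 by edgeR's test of the interaction, in which 12.9% of genes were called). *Npr3* in WT LV with PBS was at 0.14 to 0.26 TPM on 26 to 58 reads, so its leptin effect in LV was measured close to the floor. The PBS levels in iWAT and LV were also among those that selected *Npr3*, so the test is not independent of that choice. For *Npr1* the difference was 0.04 (adjusted p = 0.911) and for *Npr2* -0.25 (adjusted p = 0.259 by edgeR). The difference between iWAT and WT CV was not tested, because the CV contrast selected *Npr3*. The 2 values, -5.10 and -0.58, stand side by side.

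Tissues were also compared among leptin-treated WT females and among cKO females with PBS, in tests that left out their pairing by mouse. The CV libraries of WT females with leptin were among those that selected *Npr3*, so its differences from them are a description with no test. In those females *Npr1* was 2.02 and *Npr2* 2.42 higher in CV than in LV on the log2 scale (adjusted p = 3.15e-08 and 4.13e-09 by edgeR, where 64.3% of genes were called), and *Npr3* was 5.04 higher. In cKO females with PBS the same differences were 2.08, 2.42 and 5.87 (adjusted p = 2.62e-07, 7.58e-07 and 1.46e-07 by edgeR, 65.4% of genes called). iWAT exceeded LV by 2.96 for *Npr1*, 1.63 for *Npr2* and 2.28 for *Npr3* (61% of genes called). With leptin, *Npr3* was 2.81 lower in iWAT than in CV (difference -2.81, standard error 0.189), whereas with PBS the described difference was 1.73 higher in iWAT. *Npr1* was 0.90 higher and *Npr2* 0.84 lower in iWAT than in CV with leptin (differences 0.90 and -0.84, adjusted p = 8.99e-04 and 2.83e-04 by edgeR, 46.8% of genes called). With shares this high among all genes, a call between tissues says little about the receptors by itself. The sizes describe tissues that also differed in cell types. In WT females with leptin, the median sum of 8 endothelial markers was 538.7 TPM in CV and 89.64 TPM in LV. That of 9 chondrocyte markers was 1190 and 200.4 TPM, and that of 5 erythroid markers 7092 and 88160 TPM. The part of these lists in the receptors' differences was not tested.

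These tissue values depend on the scaling. On TPM, without the TMM factors, the median over all genes moved to 1.05 for CV against LV with leptin, 1.19 in cKO with PBS, 0.78 for iWAT against LV and -0.25 for iWAT against CV. The share of higher calls went from 51.6% to 87.5%, from 51.7% to 88.2%, from 52.2% to 81.7% and from 48.9% to 30.7%. Each receptor kept its direction under both, with values on TPM of 3.07, 3.38 and 5.80 for CV against LV with leptin and 0.65, -0.95 and -3.02 for iWAT against CV, in the order *Npr1*, *Npr2* and *Npr3*. For leptin in iWAT the share of higher calls went from 47.9% to 25.9%, and *Npr3* was at -4.96.

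No receptor passed the test for the insulin pellet in PBS-treated males. *Npr3* was at 13.8, 18.8, 21.1, 23.0 and 31.9 TPM with the pellet and at 17.0, 20.6, 21.5, 12.8 and 19.0 TPM without it (log2 fold change 0.15, 95% interval -0.17 to 0.46, adjusted p = 0.912 by edgeR). No gene was called by edgeR (0%), 976 had an unadjusted p below 0.05, DESeq2 called 3 and limma on log2(TPM + 0.1) called 1. *Npr1* and *Npr2* had log2 fold changes of 0.01 and -0.05. The pellet mice carry numbers in the 300s and 400s and the others in the 100s and 600s, so that insulin and mouse series cannot be told apart.

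With both leptin and insulin, *Npr3* ran from 13.8 to 20.6 TPM with a median of 19.2 TPM in 6 mice. This range overlapped those of leptin alone and of PBS. As a description, it was 0.45 higher than with leptin alone (standard error 0.137) and -0.05 against PBS on the log2 scale. *Npr1* went the other way, with 13.4 to 22.7 TPM (median 18.5) against 18.4 to 24.8 TPM (median 21.4) with leptin alone, a log2 fold change of -0.28 (standard error 0.0787), and 0.04 against PBS. *Npr2* stayed between 40.2 and 51.7 TPM (log2 fold change 0.01 against leptin alone).

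No receptor passed the test between genotypes with PBS. edgeR called no gene between cKO and WT in female CV (0%), male CV (0%) or female LV (0%), with 1476, 783 and 388 genes at an unadjusted p below 0.05 and 47, 40 and 14 called by DESeq2. limma on log2(TPM + 0.1) called 1, 2 and 0, the fit with the replicate number as a block 0, 1 and 1, and the fit with the mouse-number series as a covariate 1, 14 and 2. *Npr3* in CV had log2 fold changes of 0.02 in females (95% interval -0.20 to 0.24) and 0.22 in males (-0.02 to 0.46), *Npr1* of -0.14 and 0.05, and *Npr2* of 0.05 and -0.13.

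Of the 3 receptors, *Npr1* alone passed the adjusted p between the sexes by edgeR, in WT mice. In WT CV with PBS it was at 26.3, 26.9, 26.4, 24.2 and 26.1 TPM in females and at 15.8, 15.6, 18.0, 16.1 and 18.2 TPM in males, with no overlap. The log2 fold change of males against females was -0.40 (standard error 0.0688, adjusted p = 0.00173 by edgeR), which passed the adjusted p but not the size of 0.5, in a comparison where 7.96% of genes were called. In it 5812 of 14873 genes had an unadjusted p below 0.05 by edgeR. The median gene was at -0.23 on TPM and 0.00 after TMM scaling, and the share of higher calls was 6.03% on TPM and 43.9% after TMM. In cKO CV, *Npr1* was at 22.0 to 27.9 TPM in females and 15.1 to 20.2 TPM in males, again without overlap. The log2 fold change was -0.20 (adjusted p = 0.0935 by edgeR, 9.94% of genes called, 5508 of 14873 at an unadjusted p below 0.05). On TPM it was -0.49, and the adjusted p ran from 0.0108 to 0.122 over the other settings. The shift of the median gene there was -0.27 on TPM, and the share of higher calls went from 54.6% to 7.36%. The summed level of 8 endothelial markers also lay apart in WT, at 508 to 561.9 TPM in females and 381.8 to 454.2 TPM in males, though none of the 8 was called. Of 8 osteoblast and osteocyte markers, 6 were lower in WT males and 5 in cKO males. The 6 skeletal muscle markers summed to 16460 to 36930 TPM in WT females and 37480 to 44690 TPM in WT males. In cKO these sums overlapped, at 21390 to 30630 TPM in females and 28810 to 58660 TPM in males. The part of these lists in the level of *Npr1* was not tested. *Npr2* and *Npr3* were not called in either genotype, and *Npr3* in cKO was 0.12 higher in males after TMM scaling and -0.21 on TPM.

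The balance of *Npr1* to *Npr3* puts both cyclase and clearance receptor on 1 scale per library, as the log2 of the ratio of their TPM. In iWAT it was -0.77 ± 0.434 with PBS and 4.22 ± 0.214 with leptin (SD, n = 5 each), a geometric mean ratio of 0.587 and 18.6. The groups did not overlap (difference 4.99, exact two-sided permutation p = 0.00794, the smallest possible, adjusted p = 0.0298 over 15 comparisons). These include CV against LV and iWAT against CV in WT females with leptin, whose CV libraries helped to select *Npr3*. Their low p values bring the adjusted p below 0.05, so this pass rests on them. In LV the balance was already high and did not differ with leptin in WT (3.29 ± 0.595 against 3.28 ± 0.348, exact permutation adjusted p = 0.984) or cKO mice (2.87 ± 0.705 against 3.25 ± 0.399, exact permutation adjusted p = 0.429). Its size there depends on the 0.1 TPM added to each receptor, since *Npr3* in LV was at 0.10 to 0.60 TPM. Over other settings, in WT females with leptin, CV against LV ran from -3.24 to -1.15 and iWAT against LV from 0.48 to 2.06.

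In CV the balance was near 0 with PBS, where both receptors had about equal TPM. In female cKO CV it was 0.00 ± 0.174 with PBS and 0.63 ± 0.0917 with leptin (SD, n = 4 each), with no overlap. This is a difference of 0.63 (exact permutation p = 0.0286, the smallest that 4 against 4 allows, adjusted p = 0.0612). In male cKO CV it was -0.29 ± 0.201 with PBS and 0.58 ± 0.223 with leptin, a difference of 0.86 (exact permutation adjusted p = 0.0476). This pass, too, rests on the comparisons in the adjustment that hold WT CV with leptin. The adjusted p was 0.0595 with a pseudocount of 0.01 TPM or with the ratio of counts. WT CV, described only, went from 0.22 to 0.55 in females and from -0.10 to 0.67 in males. The males with both leptin and insulin were at -0.04 ± 0.410 (SD, n = 6), below each of the 8 mice with leptin alone, and those with PBS and insulin at -0.22 ± 0.427 (SD, n = 5).

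**Figure D3:**
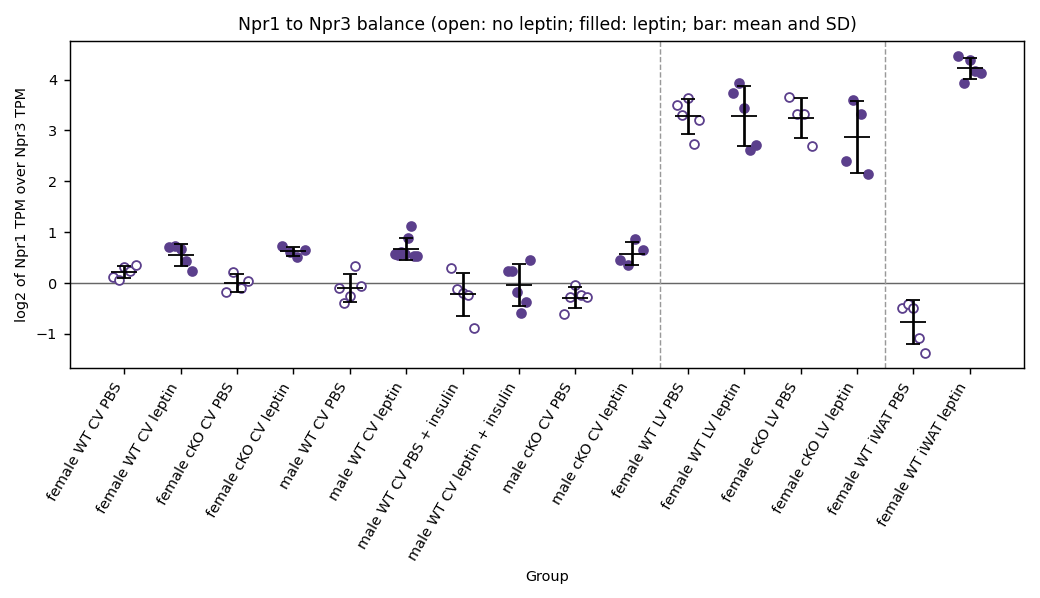
Log2 of *Npr1* TPM over *Npr3* TPM in each library by group, with open points without leptin, filled points with leptin, and bars for the mean and SD. CV groups lie between -0.29 and 0.67, LV groups between 2.87 and 3.29, and iWAT moves from -0.77 with PBS to 4.22 with leptin. Each receptor had 0.1 TPM added, on which the LV values depend.

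The genes that surround the receptors in the pathway were listed as 32 genes, of which 27 passed the filter of 0.4 TPM on average. The peptide genes themselves were scarce. *Nppa*, *Nppb* and *Nppc*, which encode the atrial, B-type and C-type peptides, had means of at most 0.149, 0.335 and 0.934 TPM in any group and were not tested. The exception was *Ostn*, which encodes osteocrin, a ligand of the clearance receptor made by bone and muscle. It was at 66.0 TPM in female WT CV with PBS, 1.49 TPM in LV and 0.208 TPM in iWAT.

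In iWAT with leptin, 2 of the 27 genes rose and 5 fell, where 7.24% of all genes rose and 7.87% fell, with a median log2 fold change of 0.04 over the list beside 0.07 over all genes. Both tested subunits of soluble guanylyl cyclase, which makes cGMP in response to nitric oxide, rose. *Gucy1a1* was at 0.51 (adjusted p = 0.0153 by edgeR) and *Gucy1b1* at 0.56 (adjusted p = 0.0184 by edgeR). Both values lie close to the threshold of 0.5, and the median over all genes was -0.025 on TPM in place of 0.07. Other settings are not given for pathway genes. *Gnai1*, an inhibitory G protein subunit, fell by 1.76 (standard error 0.172, adjusted p = 1.08e-04 by edgeR) from 81.6 to 22.6 TPM, while *Gnai2* and *Gnai3* were at 0.03 and 0.04. *Pcsk6* and *Furin*, proprotein convertases that process peptide precursors and their enzymes, fell by 1.16 and 0.58. *Lipe*, the hormone-sensitive lipase, fell by 0.74 and *Plin1*, the perilipin of the lipid droplet, by 0.95. *Lipe* and *Plin1* were picked by the study from these mice in CV, so their direction is not independent evidence. Kinases and phosphodiesterases of cGMP were not called, with *Prkg1* at 0.65 (adjusted p = 0.0514 by edgeR) and *Pde2a* at 0.33 (adjusted p = 0.0506 by edgeR).

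**Figure D4:**
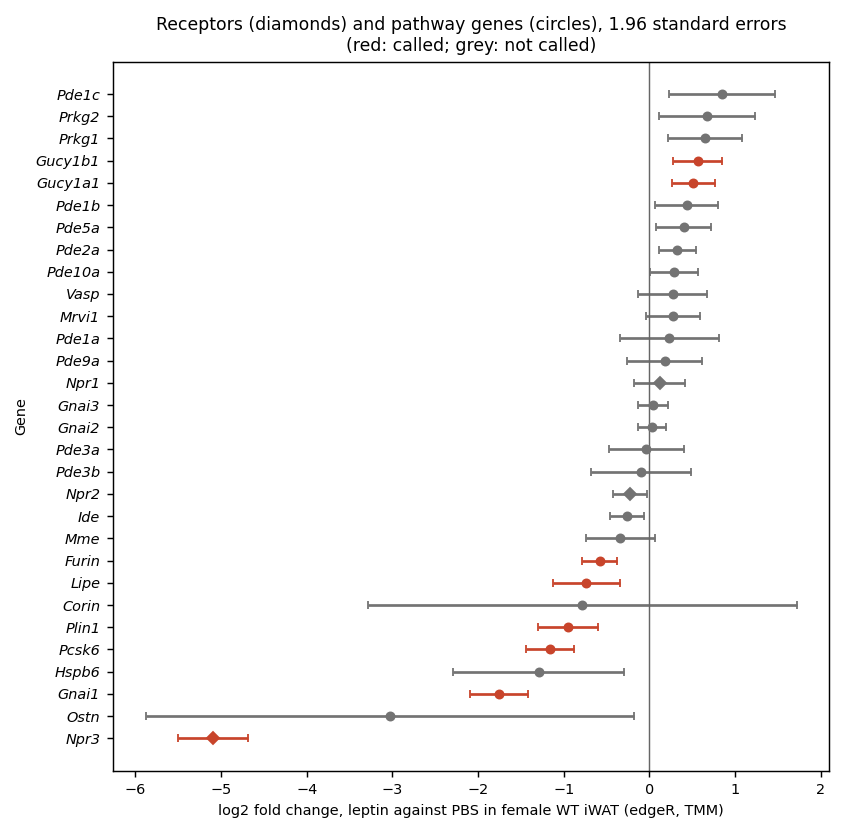
Log2 fold changes with leptin against PBS in female WT iWAT for the 3 receptors (diamonds) and 27 pathway genes (circles), with bars for the 95% interval and called genes in red. *Npr3* at -5.10 is below all the others, followed by *Ostn* at -3.03 with a wide bar and *Gnai1* at -1.76.

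In WT CV with leptin, the test covered the pathway list only. In females 5 of 27 genes fell and none rose (5.04% of all genes called): *Prkg1*, the cGMP-dependent kinase, by 0.58, *Pde3b*, a phosphodiesterase of adipocytes, by 0.57, *Ostn* by 0.94, *Lipe* by 0.98 and *Plin1* by 1.37. *Ostn* went from 66.0 to 35.5 TPM. *Lipe* and *Plin1* were among the genes the study picked from these contrasts, so their calls are not independent of that choice. In males *Lipe* fell by 0.88 and *Plin1* by 1.23, and the other 25 genes did not pass (1.75% of all genes called). None of the 27 was called with leptin in cKO CV or in LV, with genotype, or with insulin. Between the sexes, none was called in WT, and in cKO *Hspb6*, a small heat shock protein that the kinase phosphorylates, was 0.86 higher and *Furin* 0.62 lower in males (differences 0.86 and -0.62).

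Between tissues of leptin-treated WT females, CV had 14 of 27 pathway genes higher than LV and 6 lower, where 64.3% of all genes were called. Those higher included the kinases *Prkg1* and *Prkg2*, *Corin*, the convertase of the atrial peptide,, *Ostn* and *Mme*, the peptidase neprilysin, and those lower included *Gucy1b1*, *Vasp* and *Pde5a*. Against CV, iWAT had 4 higher (*Pde3b*, *Gucy1b1*, *Lipe* and *Plin1*) and 12 lower, where 46.8% of all genes were called. *Pde3b* was 2.31 higher in iWAT, and *Prkg2* was lower there (difference -3.69). *Ostn* and *Corin*, at means of 0.020 and 0.004 TPM in iWAT with leptin, were close to absent there.

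Within CV, each receptor varied with other genes from mouse to mouse. Over the 51 CV libraries, with the mean of each of the 10 groups taken off log2 TPM, the genes most like *Npr1* were *Shank3* (Pearson's r = 0.847), *Erg* (0.823), *Cdh5* (0.819), *Flt1* (0.818) and *Eng* (0.815), of which the last 4 are textbook endothelial genes. Among those most like *Npr2* were *Gab1* (0.874), *Gtf2ird1* (0.865), *Lgr4* (0.861) and *Serinc5* (0.860). Those most like *Npr3* were *Mr1* (0.749), *Strn3* (0.740), *Hk2* (0.720), *Enpp4* (0.720) and *Dync1li2* (0.716). These libraries share tissue dissection and depth, so that the correlations describe how the samples vary and carry no test.

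Marker lists, of which *Cdh5* is also a member, were compared in the same way. The median r with *Npr1* was 0.708 over 8 endothelial markers, against 0.276 over all genes. With *Npr2* it was 0.681 over 9 chondrocyte markers, 0.555 over 6 mural and smooth muscle markers and -0.591 over 6 skeletal muscle markers, against 0.245 over all genes. *Npr3* had no list above 0.434, the value for mural and smooth muscle markers, and stood at 0.187 for 8 adipocyte markers, against 0.247 over all genes. Among the receptors themselves, r was 0.497 for *Npr1* with *Npr3*, 0.349 for *Npr1* with *Npr2* and 0.260 for *Npr2* with *Npr3*.

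**Figure D5:**
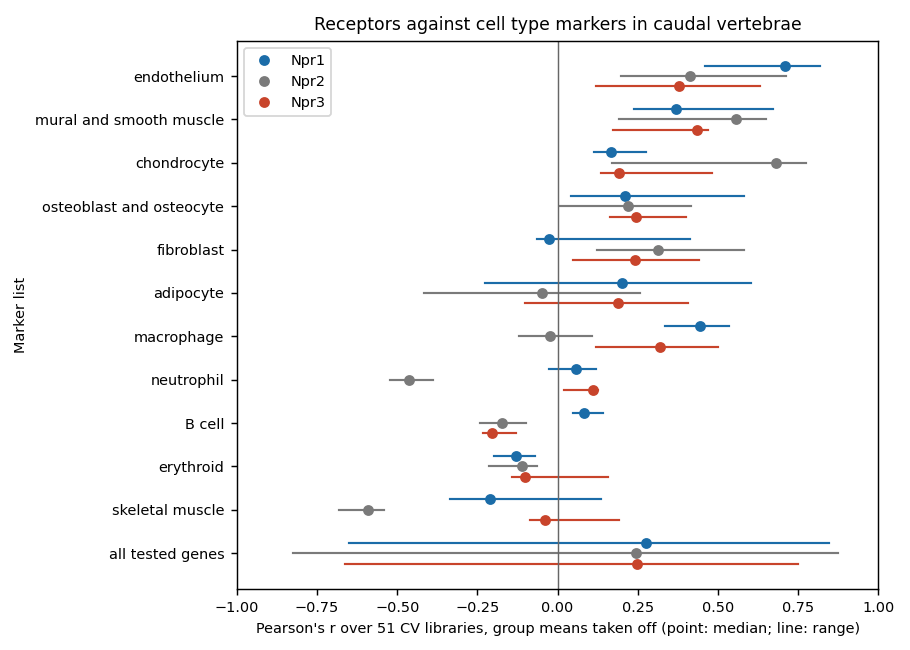
Pearson's r of each receptor with the markers of 11 cell types and with all tested genes over 51 CV libraries after group means were taken off, with points at the median and lines over the range of each list. *Npr1* has its highest median, 0.708, with endothelial markers and *Npr2*, 0.681, with chondrocyte markers, and *Npr3* has 0.187 with adipocyte markers.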

How the data were processed

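Per the labels and the study's methods, RNA was enriched with oligo dT and sequenced as paired-end reads on the DNBSEQ platform, and the authors filtered reads with SOAPnuke and aligned them to GRCm38.p6 with HISAT and Bowtie2. The submitters' processing notes name GRCm39 as well. The authors deposited estimated counts per gene, not normalized, and TPM. The counting tool is not given in the sources used here. Rows without a numeric gene ID held 0 counts. The 51 values that were not whole were rounded.

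Each comparison was fitted on its own with edgeR 4.0.16 (TMM scaling, quasi-likelihood test), on the 14873 genes averaging 0.4 TPM or more over the libraries, with Benjamini-Hochberg adjustment over all of them. The standard error is the log2 fold change over the root of F. Ranges of 1.96 standard errors are narrower than 95% intervals of the test. The male insulin groups shared 1 fit. *Npr3* is given without a p in comparisons that hold WT CV with leptin, though the planned test was run. The 15 balance comparisons include these, and their low p values lower the adjusted p of the others. Balance values had 0.1 TPM added to each receptor and exact permutation tests. Alternatives used DESeq2 1.42.0, limma 3.58.1, other filters, scaling factors and pseudocounts, the replicate number as a block, the mouse-number series, and leaving out each library. Scripts were tested on simulated data. Named genes are the receptors, pathway genes that were called, and the 5 genes most like each receptor within CV groups. One of these genes is not reported here. The members and lists were chosen with earlier results of these data known. Levels were compared between genes on TPM only. Totals of 16100377 to 29757254 counts set the precision, which is low for *Npr3* in LV. No 2 libraries of a group agreed within sampling noise.

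Tissues of 1 female share a mouse, so the numbers pair CV, LV and iWAT. The main tests between tissues, the interaction and the balance included, left this pairing out. Libraries of 1 mouse deviated together in every pair of CV with LV and of iWAT with CV (correlations of 0.075 to 0.325). In iWAT with LV the correlations ran from -0.0327 to 0.187. Same-numbered mice also deviated together between cKO and WT in female LV (correlations of 0.107 to 0.32), though the labels give different mice. They did not do so throughout in the other comparisons of different mice. Mouse numbers are labels and are not stated to be batches.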

Additional observations from a re-analysis of the deposited data

Results flagged for a closer look

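The leptin effect on *Npr3* differed between iWAT and LV of the same WT females, by -5.27 on the log2 scale in the test of the interaction. *Npr3* was close to absent in LV, and the PBS levels of both tissues were among those that selected it. In groups of 4 to 8 mice, 64 combinations of group and measure were looked at for a library far from the others, of which chance alone gives about 1 in 20, and 2 were found. In female cKO CV with leptin, replicate 4 had *Npr3* at 9.79 TPM, while the remaining libraries were at 14.2 to 14.8 TPM. Without it the log2 fold change was -0.79 in place of -0.83. In female cKO LV with PBS, replicate 3 had *Npr2* at 5.54 TPM, and the remaining libraries at 4.45 to 4.61 TPM.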

How the results depend on the processing

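No called receptor changed direction or lost its call under any alternative run, leaving out single libraries included. *Npr3* in iWAT lay between -5.13 and -4.46 on the log2 scale under other settings and between -5.24 and -5.01 without 1 library. With DESeq2, *Npr3* passed the threshold with leptin in female (-0.83) and male (-0.75) cKO CV, and with limma *Npr1* passed between the sexes in WT CV (-0.61 with 1 TPM added and -0.63 with 0.1 TPM). The cause of these differences was not tested. Numbers of called genes moved by over 1.5 times for leptin in cKO CV, with 4 in females against 219 by DESeq2, 13 with the block and 0 to 40 without 1 library, and 28 in males against 212 by DESeq2, 13 with the mouse-number series as a covariate, 14 with the block and 5 to 65 without 1 library. For sex they went from 1184 to 2323 in WT by limma, and from 1479 to 2758 by limma and 875 with the block in cKO. Leptin in WT LV went from 0 to 142 by DESeq2 and 78 with the mouse-number series as a covariate.

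The *Npr1* to *Npr3* balance no longer passed for leptin in male cKO CV with a pseudocount of 0.01 TPM (0.87), with counts (0.89) or without 1 library (0.77 to 0.94), and for iWAT against LV with leptin with a pseudocount of 0.01 TPM (0.48) or counts (0.54). Between the sexes in WT CV it was -0.42 to -0.24 without 1 library and passed without male PBS replicate 4. With the replicate number as a block, differences within pairs were tested by exact sign flips, which cannot pass at these sizes. The values were 0.87 for leptin in male cKO CV, 4.99 in iWAT, -2.74 for CV against LV, 0.93 for iWAT against LV and 3.67 for iWAT against CV. For tissues of the same mice this is the paired test, so passes of their balance rest on a test without the pairing. The block changed no call of a receptor.

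Signs changed only for values that had not passed a test. With limma on log2(TPM + 1) and log2(TPM + 0.1), *Npr2* went to -0.0021 and -0.0022 with leptin in male cKO CV, to 0.054 and 0.061 with leptin in cKO LV, to -0.103 and -0.105 with sex in WT and to 0.030 and 0.031 with insulin. *Npr3* went to -0.20 and -0.21 with sex in cKO, and *Npr1* to -0.041 and -0.061 for the difference of leptin effects between iWAT and LV. With the mouse-number series as a covariate, *Npr2* went to -0.075 in male cKO CV and -0.055 in WT LV with leptin and to -0.083 between genotypes in female CV, and *Npr3* to -0.081 in WT LV with leptin and -0.0504 between genotypes in female CV. With the block, *Npr2* went to -0.00554 in WT LV with leptin, and *Npr3* to -0.025 between genotypes in female CV and 0.0073 in LV. The balance went to 0.043 between genotypes in LV with a pseudocount of 0.01 TPM and to 0.024 in cKO LV with leptin with 1 TPM.

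Without 1 library, *Npr2* ran from -0.025 to 0.12 for leptin in male cKO CV, from -0.058 to 0.065 for leptin in female WT LV, from -0.071 to 0.042 for leptin in female cKO LV, from -0.092 to 0.13 for cKO against WT in female CV with PBS and from -0.21 to 0.016 for male against female in cKO CV with PBS. Without 1 library, *Npr3* ran from -0.14 to 0.35 for leptin in female WT LV, from -0.05 to 0.092 for cKO against WT in female CV with PBS, from -0.36 to 0.11 for cKO against WT in female LV with PBS, from -0.15 to 0.0092 for male against female in WT CV with PBS, from -0.0035 to 0.27 for PBS with insulin against PBS in male WT CV and from -0.057 to 0.23 for the difference of the leptin effect between male and female cKO CV. Without 1 library, *Npr1* ran from -0.0070 to 0.19 for leptin in female WT iWAT, from -0.023 to 0.040 for PBS with insulin against PBS in male WT CV and from -0.076 to 0.14 for the difference of the leptin effect between iWAT and LV in female WT. Without 1 library, the *Npr1* to *Npr3* balance ran from -0.15 to 0.18 for leptin in female WT LV, from -0.16 to 0.15 for cKO against WT in female LV with PBS and from -0.26 to 0.040 for PBS with insulin against PBS in male WT CV. *Npr3* in LV rests on 20 to 122 reads per library.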
